A study of Mus musculus with 10 samples.

Results

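The genes described here carry the names of mitochondrial ribosomal proteins, and membership of the ribosome was not checked beyond the name. The question put to the data was where HA-tagged SET lay around them. They were chosen by name as the protein-coding mouse genes whose symbols begin with Mrpl or Mrps followed by a digit, in the RefSeq gene table of assembly GRCm38.p6. That table held 78 such genes. The 13 on chromosomes 8 and 11 were not analysed here, which left 65 genes, 40 of the large subunit (Mrpl) and 25 of the small subunit (Mrps), among 19232 protein-coding genes.

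The study precipitated HA-tagged SETα or SETβ, isoforms of SET, a protein that binds histones, from mouse embryonic stem cells. All lines derive from KH2, an embryonic stem cell line with a docking site for 1 doxycycline-inducible transgene, here delivered with the pBS31 vector. In the addback groups HA-SETα or HA-SETβ was induced in SET KO cells, and in the overexpression groups it was induced in SET wild-type cells. Each of these 4 groups had 2 replicates. Every library came from cells given 1 µg/ml doxycycline for 24 h, grown on mouse embryonic fibroblasts that were then depleted, and crosslinked with 2 mM DSG (a protein-to-protein crosslinker) for 45 min ahead of 1% formaldehyde for 10 min. Each group was a line of its own, so line and group cannot be told apart, and the labels do not say that replicates were separate cultures, so a p measures only the spread between these libraries. Samples of SET KO cells that received no doxycycline (2) were not analysed here, and signal that does not depend on the HA tag was not measured.

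Mitochondria carry their own ribosomes, which translate the few messages of the mitochondrial genome into membrane subunits of the respiratory chain and the ATP synthase. Their RNA comes from mitochondrial DNA, while every ribosomal protein is encoded in the nucleus, made in the cytoplasm and imported. Some of these proteins descend from bacterial ribosomal proteins and keep their numbers, and the rest are specific to mitochondria. Promoters of nuclear genes for mitochondrial proteins are known for sites of NRF1 and of GABP, an ETS-family factor, and many lack a TATA box.

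A gene was counted as having a peak when a peak came, with at least 1 bp, within 1 kb of its start or its end. The authors' lists of reproducible peaks, 1 per group, hold peaks that ranked alike in the 2 replicates (irreproducible discovery rate, IDR, at most 0.05). The promoters of the 6 genes present in both addback IDR lists with the best rank in either are shown first, because they carry the family's best-ranked peaks by that measure. Beside them stand the promoters of Mrpl17 and Mrpl18, the first 2 genes in alphabetical order that had a promoter window and no peak in any library. Each runs 5′ to 3′ on the strand of its gene from 250 bases before a RefSeq start to 30 bases from it (GRCm38.p6). Capitals mark exact matches, on either strand, to letters of known promoter motifs. The motif of NRF1 was searched as GCGCATGCG, that of the ETS family as CCGGAAG, that of SP and KLF factors as GGGCGG, and that of the factor NFY as CCAAT. The motif of YY1 was searched as AAGATGGC, that of CREB and ATF factors as TGACGTCA, that of BANP or ZBTB33 as TCTCGCGA, and the box of TBP as TATAAA.
Mrpl21: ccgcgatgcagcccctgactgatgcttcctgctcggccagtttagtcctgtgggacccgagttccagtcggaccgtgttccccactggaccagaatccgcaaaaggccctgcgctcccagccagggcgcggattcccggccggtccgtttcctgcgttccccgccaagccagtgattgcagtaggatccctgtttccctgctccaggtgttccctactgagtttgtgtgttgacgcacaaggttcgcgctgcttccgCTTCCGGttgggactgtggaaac
Mrpl44: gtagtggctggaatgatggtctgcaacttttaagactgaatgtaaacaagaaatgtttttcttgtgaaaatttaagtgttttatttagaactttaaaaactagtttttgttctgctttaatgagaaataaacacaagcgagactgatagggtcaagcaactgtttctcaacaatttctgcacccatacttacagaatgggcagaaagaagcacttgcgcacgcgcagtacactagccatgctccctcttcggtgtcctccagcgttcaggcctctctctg
Mrpl39: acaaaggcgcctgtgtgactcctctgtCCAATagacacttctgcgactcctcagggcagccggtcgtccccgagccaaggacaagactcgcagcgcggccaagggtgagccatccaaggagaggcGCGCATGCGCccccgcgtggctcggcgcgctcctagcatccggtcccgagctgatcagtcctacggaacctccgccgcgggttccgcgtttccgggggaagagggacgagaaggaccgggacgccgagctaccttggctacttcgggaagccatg
Mrpl1: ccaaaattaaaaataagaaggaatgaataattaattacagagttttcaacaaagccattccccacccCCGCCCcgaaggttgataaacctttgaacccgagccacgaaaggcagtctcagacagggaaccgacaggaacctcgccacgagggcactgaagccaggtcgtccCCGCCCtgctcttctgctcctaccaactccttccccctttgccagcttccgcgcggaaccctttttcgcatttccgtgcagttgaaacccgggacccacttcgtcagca
Mrpl30: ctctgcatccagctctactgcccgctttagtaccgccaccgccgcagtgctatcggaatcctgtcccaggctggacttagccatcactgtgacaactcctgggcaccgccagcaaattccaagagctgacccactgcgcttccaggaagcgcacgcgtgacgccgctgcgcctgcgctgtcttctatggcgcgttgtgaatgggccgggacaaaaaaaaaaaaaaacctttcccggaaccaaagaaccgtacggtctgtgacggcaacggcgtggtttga
Mrps18c: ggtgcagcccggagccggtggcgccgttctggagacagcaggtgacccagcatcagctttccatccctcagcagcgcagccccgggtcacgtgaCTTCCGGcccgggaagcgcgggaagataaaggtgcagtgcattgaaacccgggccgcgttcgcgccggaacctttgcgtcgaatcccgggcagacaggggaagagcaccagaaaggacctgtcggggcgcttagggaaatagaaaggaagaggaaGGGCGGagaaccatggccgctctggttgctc
Mrpl17: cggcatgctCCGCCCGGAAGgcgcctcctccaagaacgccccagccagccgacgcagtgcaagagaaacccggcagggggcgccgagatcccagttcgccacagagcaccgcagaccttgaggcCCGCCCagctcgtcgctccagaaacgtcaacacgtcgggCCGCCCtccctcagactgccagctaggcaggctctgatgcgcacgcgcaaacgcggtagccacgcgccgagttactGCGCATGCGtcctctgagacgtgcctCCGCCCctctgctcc
Mrpl18: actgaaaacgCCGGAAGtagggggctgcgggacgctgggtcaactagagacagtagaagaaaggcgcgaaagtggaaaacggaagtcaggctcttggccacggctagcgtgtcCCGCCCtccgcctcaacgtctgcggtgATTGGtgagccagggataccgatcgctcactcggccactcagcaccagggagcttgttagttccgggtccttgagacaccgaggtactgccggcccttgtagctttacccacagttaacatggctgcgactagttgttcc

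Among these 8 windows, that of Mrpl21 (chr19:3282792-3283071, + strand) held 1 match, the reverse complement of the ETS letters, which begins 7 bases after the start. The window of Mrpl39 (chr16:84735215-84735494, − strand) held the NFY letters once and the NRF1 letters on both strands, in overlapping positions 125 and 124 bases before the start. That of Mrpl1 (chr5:96209865-96210144, + strand) held the SP/KLF letters 2 times, and that of Mrps18c (chr5:100798509-100798788, + strand) the ETS and SP/KLF letters once each. No listed letters were found in the windows of Mrpl44 (chr1:79775768-79776047, + strand) and Mrpl30 (chr1:37890227-37890506, + strand). Both windows held gcgcacgcg, 1 base away from the NRF1 letters and not searched, as did that of Mrpl17. The genes without a peak were not poor in the listed letters. The window of Mrpl17 (chr7:105811058-105811337, − strand) held 6 matches, an overlapping SP/KLF and ETS pair among them, and that of Mrpl18 (chr17:12916062-12916341, − strand) held 3.

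In SET KO cells, peaks lay at many of the mitochondrial ribosomal protein genes with either isoform, and at more of them than at protein-coding genes as a whole. With SETα, 40 of the 65 genes (61.5%) had a peak in replicate 1 and 36 (55.4%) in replicate 2, beside 34.3% and 31.8% of all protein-coding genes. With SETβ, 19 (29.2%) had one in replicate 1 and 29 (44.6%) in replicate 2, beside 8.4% and 18.4%. The group means were 58.5% ± 4.35 (SD, n = 2) for SETα and 36.9% ± 10.9 (SD, n = 2) for SETβ, beside 33.0% ± 1.72 and 13.4% ± 7.05 (SD, n = 2 each) of all protein-coding genes. These are shares of genes read against that background, with no test over the chosen genes.

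In SET wild-type cells almost none had a peak. With SETα, 1 gene was counted in each replicate, beside 0.983% and 1.9% of all protein-coding genes. With SETβ, 0 and 3 genes were counted, beside 0.338% and 1.85%. The counts are too small to set apart from their backgrounds, and the difference between the SET KO and wild-type groups runs through all protein-coding genes: a mean of 23.2% of these had a peak in the SET KO libraries and 1.27% in the wild-type libraries. That difference of 22.0 percentage points had an exact two-sided permutation p of 0.0556 over 36 arrangements, the smallest this design allows, and the ranges did not overlap (8.4% to 34.3% against 0.338% to 1.9%). Between isoforms the mean shares were 17.2% with SETα and 7.24% with SETβ, a difference of 10.0 points with an exact two-sided permutation p of 0.111 (smallest possible 0.0556). This difference was 0.789 points with peaks of a −log10 q of 5 or more and 0.0572 points (exact permutation p = 0.889) with the 1343 strongest peaks of each library. Under the same settings the difference between SET KO and wild-type libraries was 3.41 and 4.64 points. Without chromosome 6, left out after seeing the data, the isoform difference was 9.47 points (exact permutation p = 0.278). In wild-type cells SETα then lay at 0.105% and 0.867% and SETβ at 0.315% and 1.79%, so SETα was no longer the higher.

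**Figure D1:**
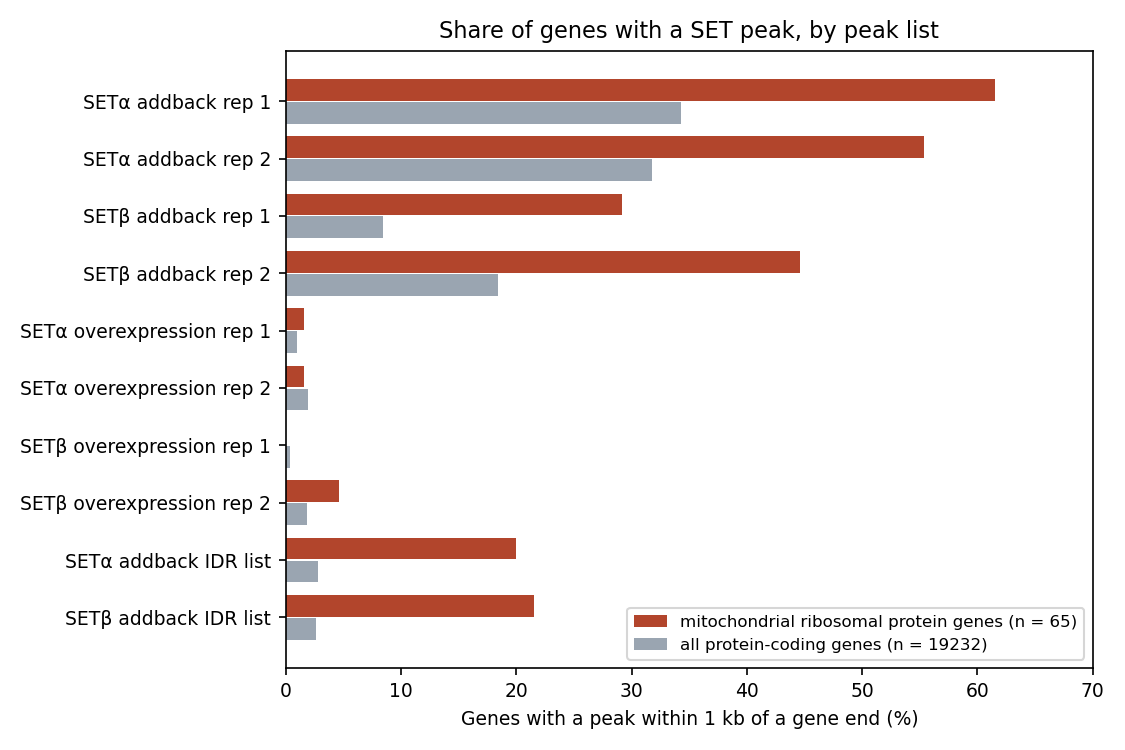
Share of genes with a peak within 1 kb of a gene end (x axis, %) in each of the 8 libraries and the 2 addback IDR lists (y axis, rep for replicate), for the 65 mitochondrial ribosomal protein genes (red) and all 19232 protein-coding genes (grey). Each bar is 1 list, with no error bar. The red bar exceeds the grey one in every addback list, from 29.2% against 8.4% to 61.5% against 34.3% in the libraries, and all overexpression bars lie at or below 4.62%.

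Peak lists of the addback libraries differed in length, from 2518 peaks in SETβ replicate 1 to 22176 in SETα replicate 1, with SETα replicate 2 at 15701 and SETβ replicate 2 at 9768. The overexpression lists held between 1343 and 7675 peaks. Read totals were not used here, so depth is not known from these lengths. SETβ addback replicate 1 held 518 peaks with a −log10 q of 5 or more, and replicate 2, with the longer list, held 498. The lowest −log10 p was nearly the same in the 8 lists, between 2.3 and 2.36.

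Requiring a peak in both replicates kept 30 genes with SETα (46.2%, beside 22.0% of all protein-coding genes) and 17 with SETβ (26.2%, beside 5.84%). In the overexpression groups 1 and 0 genes were kept, beside 0.879% and 0.187%. The same 17 genes had a peak in all 4 addback libraries (26.2%, beside 5.14%). They were Mrpl1, Mrpl3, Mrpl13, Mrpl14, Mrpl16, Mrpl20, Mrpl21, Mrpl30, Mrpl39, Mrpl40, Mrpl44, Mrpl53, Mrpl57, Mrps18c, Mrps21, Mrps27 and Mrps34. Every gene of the family with a peak in both SETβ replicates thus had one in both SETα replicates, as did 989 of the 1124 protein-coding genes with a peak in both SETβ replicates. By number of addback libraries, 16 genes had a peak in 0, 15 in 1, 10 in 2, 7 in 3 and 17 in 4, whereas 52.5%, 19.6%, 15.5%, 7.23% and 5.14% of all protein-coding genes fell into these classes.

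**Figure D2:**
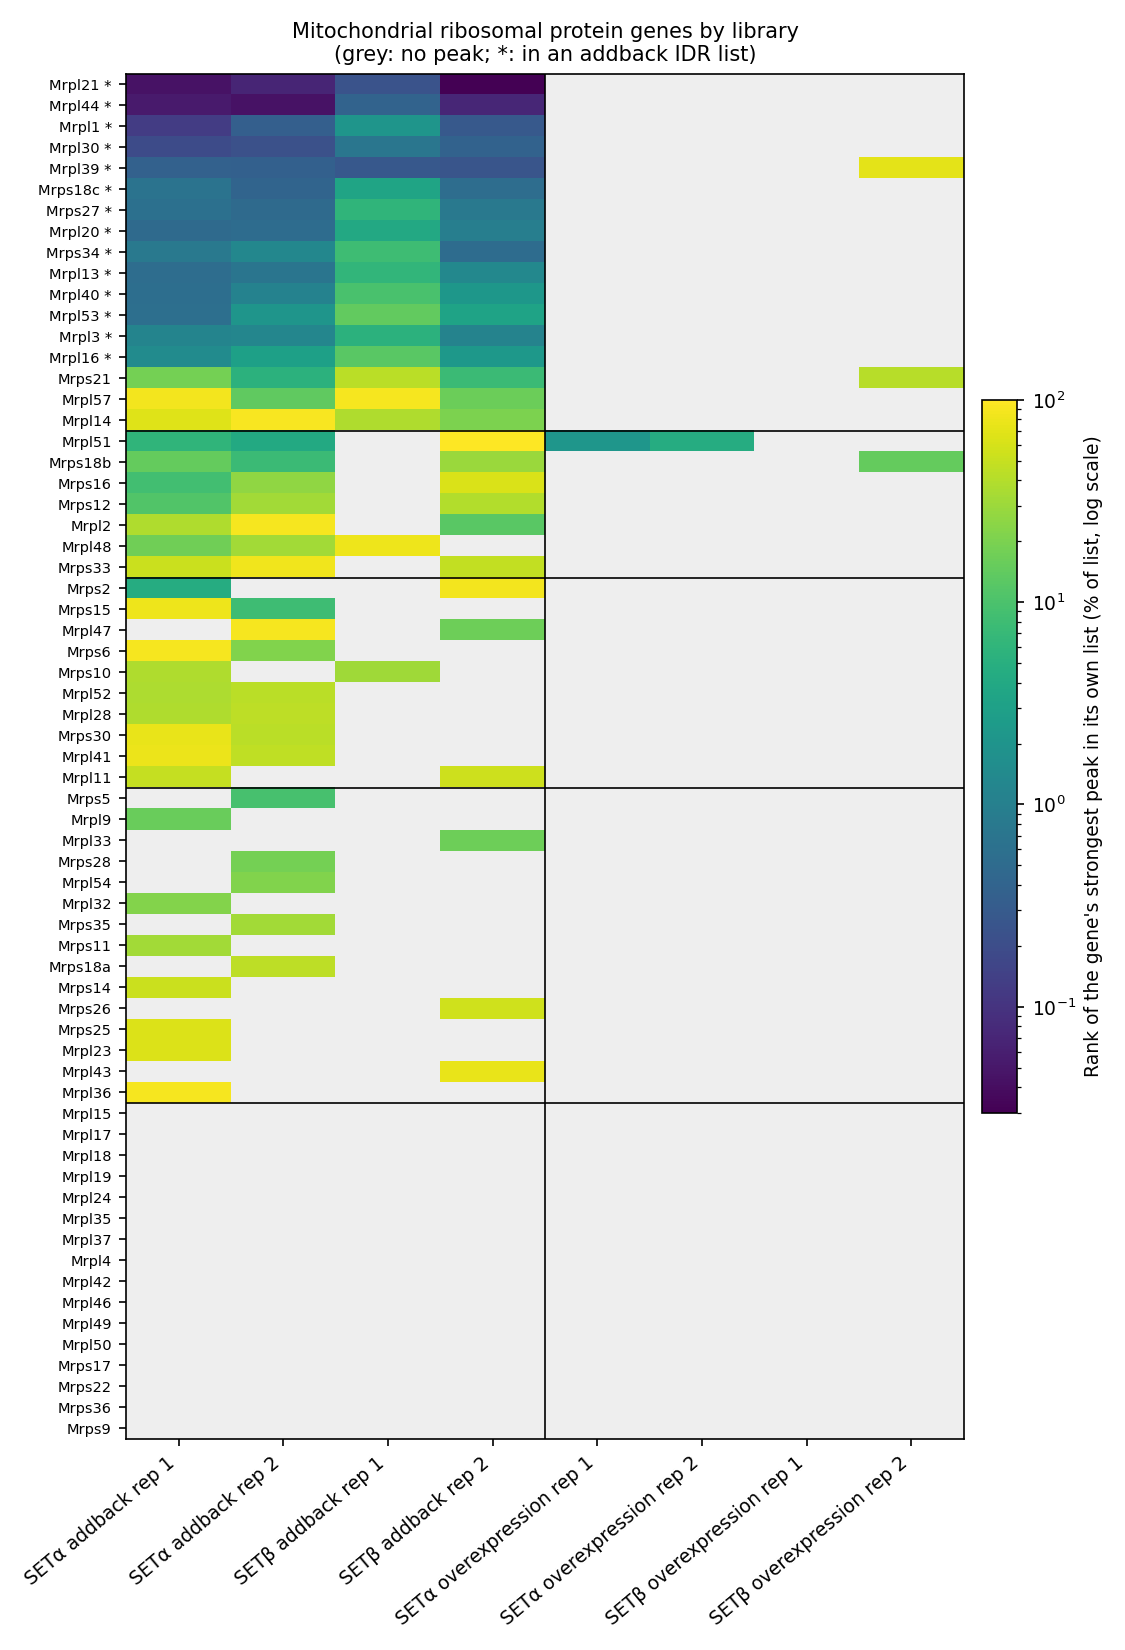
Each of the 65 genes (rows) in each of the 8 libraries (columns, rep for replicate), coloured by the rank of its strongest peak as a percentage of the length of that library's own list (log scale, dark for the top of the list) and grey without a peak. Asterisks mark the 14 genes in an addback IDR list. Horizontal lines divide the 17, 7, 10, 15 and 16 genes with a peak in 4, 3, 2, 1 and 0 addback libraries, and the 14 genes with an asterisk fill the top of the first block.

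The reproducible lists narrowed the family further. The SETα addback IDR list, of 530 peaks, held 13 of the genes (20.0%, beside 2.77% of all protein-coding genes). The SETβ addback IDR list, of 485 peaks, held 14 (21.5%, beside 2.62%). The overexpression IDR lists held 0 and 0, beside 0.0676% and 0.026%. The 13 genes were in both addback lists (20.0%, beside 2.17% of all protein-coding genes), and Mrpl40 was in the SETβ list alone. Asking for a −log10 q of 5 or more in both replicates gave 14 genes in each addback group, beside 2.88% of all protein-coding genes with SETα and 2.33% with SETβ.

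These 14 genes stood well above the rest of the family in the strength of their peaks, given here by the −log10 p and the fold enrichment of the authors' peak caller within each list. In SETα replicate 1 their −log10 p ran from 20.3 to 100.0, and the other 26 genes with a peak lay between 3.22 and 9.22. In SETα replicate 2 they ran from 14.9 to 95.9, and the other 22 from 3.36 to 11.1. In SETβ replicate 1 they ran from 17.8 to 133.0, and the other 5 from 3.65 to 6.61. In SETβ replicate 2 they ran from 15.9 to 117.0, and the other 15 from 2.69 to 7.14. In none of the 4 libraries did the ranges overlap, although the IDR lists were made from the same peaks and the gap is therefore partly set by that choice. The lowest fold enrichment among the 14 was 5.48, and the highest among the others was 4.88. The 14 genes comprised 11 of the large subunit and 3 of the small subunit.

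**Figure D3:**
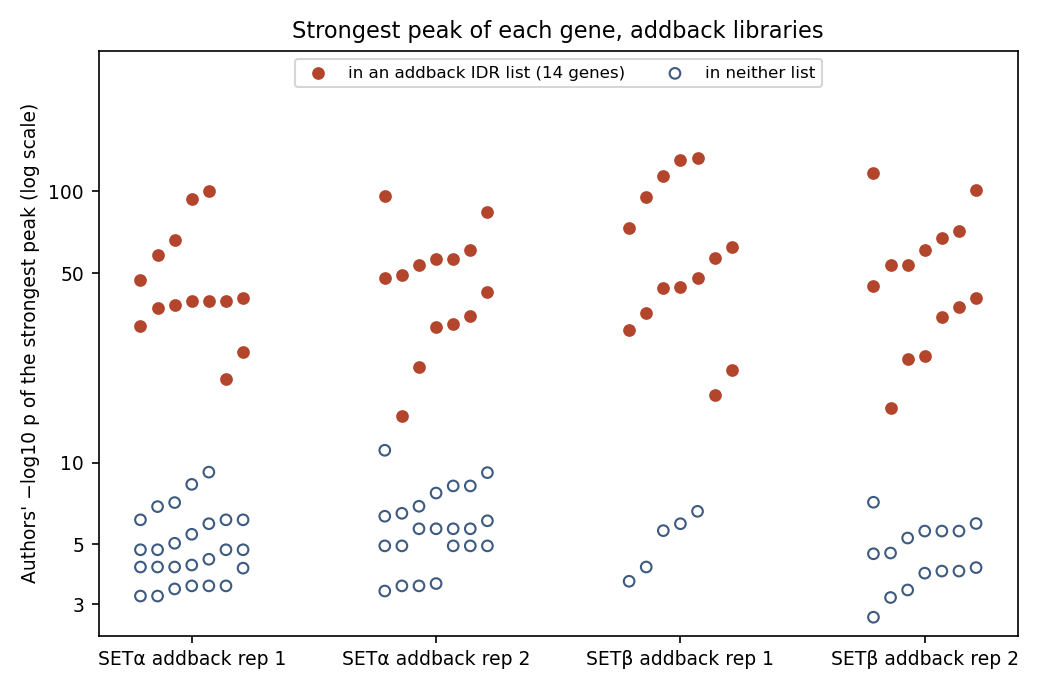
The authors' −log10 p of the strongest peak of each gene (y axis, log scale) in the 4 addback libraries (x axis, rep for replicate). Filled red points are the 14 genes in an addback IDR list, open blue points the other genes with a peak in that library, and the sideways offsets only separate points. Red points start at 14.9 or higher in every library, and blue points reach at most 11.1.

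Mrpl21 and Mrpl44, both large-subunit genes, had the best ranks of the family in both addback IDR lists and the highest −log10 p in 3 of the 4 addback libraries, SETβ replicate 1 being the exception. At Mrpl21 (chr19:3282997-3292837, + strand) the −log10 p was 100.0 and 83.8 in the SETα replicates and 133.0 and 117.0 in the SETβ replicates, with fold enrichments of 22.2, 22.5, 25.6 and 25.5. Its peak ranked 10 of 530 in the SETα IDR list and 3 of 485 in the SETβ list. All 4 libraries were high at this gene. At Mrpl44 (chr1:79776018-79781445, + strand), whose product is a large-subunit protein specific to mitochondria, the −log10 p was 93.4 and 95.9 with SETα and 114.0 and 101.0 with SETβ, and the peak ranked 7 in both IDR lists. Its fold enrichments were 21.9, 26.3, 16.5 and 16.6.

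Mrpl39, Mrpl1 and Mrpl30 followed. Mrpl39 (chr16:84718281-84735244, − strand), a protein specific to the mitochondrial large subunit, had a −log10 p of 47.2 and 56.3 with SETα and of 130.0 and 71.4 with SETβ, at rank 59 and rank 24 of the IDR lists. In SETβ replicate 1 its peak ranked 7 in the whole list of 2518, ahead of Mrpl44 at rank 10. Mrpl1 (chr5:96209498-96266727, + strand), the counterpart of bacterial L1 at the ribosome's stalk, had values of 66.4, 56.5, 73.0 and 67.3 in the same order of libraries and ranks of 40 and 27. Mrpl30 (chr1:37890477-37898338, + strand), the counterpart of bacterial L30, had values of 58.4, 60.8, 95.3 and 60.8 and ranks of 31 and 36.

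The rest of the large-subunit genes in the reproducible lists were Mrpl20, Mrpl13, Mrpl3, Mrpl53, Mrpl16 and Mrpl40. Mrpl20 ranked 88 and 92 in the SETα and SETβ IDR lists, Mrpl13 ranked 95 and 123, and Mrpl3, the counterpart of a bacterial protein near the peptidyl transferase center, ranked 201 and 106. Mrpl53 ranked 226 and 305. Mrpl16 was the weakest of the 13 shared genes with SETα, at rank 329 (234 with SETβ), with a −log10 p of 20.3 and 14.9 in the SETα replicates and 21.9 and 24.1 in the SETβ replicates. Mrpl40 ranked 206 in the SETβ list. Its −log10 p in the SETα replicates was 39.4 and 34.8, above that of Mrpl16, so its absence from the SETα IDR list was not matched by weak peaks in the libraries.

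The small subunit gave 3 genes to the reproducible lists. Mrps18c, 1 of 3 mitochondrial counterparts of bacterial S18, had a −log10 p of 37.0 and 53.7 with SETα and 62.6 and 53.4 with SETβ, and ranked 113 and 52. Mrps27, a pentatricopeptide repeat protein, had values of 38.2, 49.1, 44.4 and 44.7 and ranked 104 and 76. Mrps34 had values of 32.0, 31.7, 35.7 and 53.5 and ranked 141 and 117. The 3 genes lay within the range of the large-subunit genes in every library. Among all members, 13 of 40 large-subunit genes (32.5%) and 4 of 25 small-subunit genes (16.0%) had a peak in all 4 addback libraries, beside 5.14% of all protein-coding genes. Genes that carry the number of a bacterial protein (Mrpl1 to Mrpl36 and Mrps1 to Mrps21) did so in 10 of 38 cases (26.3%), and genes specific to mitochondria in 7 of 27 (25.9%).

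The remaining 3 genes with a peak in all 4 addback libraries had weak ones. Mrps21 had a −log10 p of 5.95, 9.18, 5.61 and 7.14, Mrpl57 of 3.42, 6.9, 3.65 and 5.59, and Mrpl14 of 4.08, 3.36, 5.95 and 5.27. Mrpl14 shared its peaks with Tmem63b and Mrpl57 shared its peaks with Ska3 in all 4 libraries, and Mrps21 shared its peaks there with the noncoding gene C920021L13Rik. At Mrpl14 the 4 summits spread over 716 bp and the 4 peaks shared no base.

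Summits at the strong genes were placed alike by every library. Over the 17 genes the summits of the 4 addback libraries spread over a median of 52 bp, and over 100 bp or less at 13 of them. At Mrpl30 they lay within 6 bp of each other. Of the 14 genes in an IDR list, 12 had a start in the RefSeq promoter table, and at 10 of these all 4 summits lay within 250 bp of a listed start (at most 188 bp away).

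The exceptions were Mrpl20 and Mrpl40. At Mrpl20 the summits lay 629, 668, 679 and 686 bp inside the gene from its listed start. At Mrpl40 they lay 502, 498, 501 and 536 bp ahead of the gene's start. In the SETβ IDR list the Mrpl40 summit was inside Hira, which encodes a histone H3.3 chaperone, 405 bp from the start of Hira and 518 bp from that of Mrpl40.

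**Figure D4:**
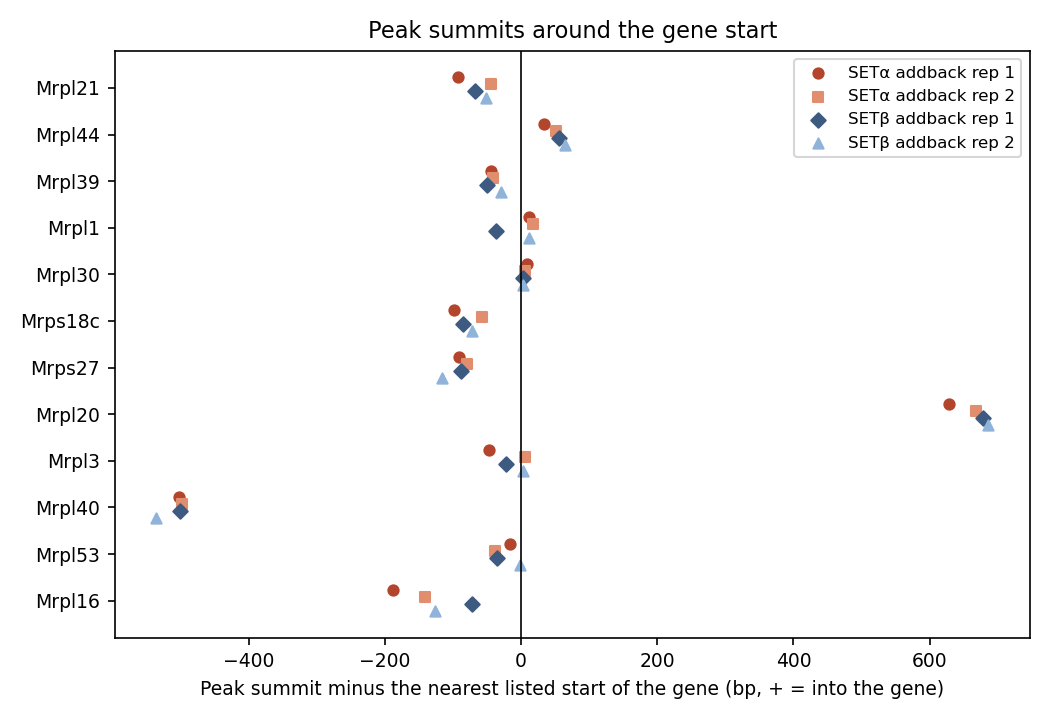
Distance in bp from the nearest listed start to the peak summit (x axis, positive into the gene) for the 12 genes of an addback IDR list that have a listed start (y axis), with 1 symbol per addback library (rep for replicate). The 4 symbols of a gene cluster, close to 0 at 10 genes, between 629 and 686 bp at Mrpl20 and between −536 and −498 bp at Mrpl40.

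Many of these peaks were not the family's alone. In the SETα IDR list 8 of 13 genes (61.5%) shared their peak with the end of a second protein-coding gene, and in the SETβ list 9 of 14 (64.3%), beside 40.7% and 41.4% of all protein-coding genes with a peak in those lists. Mrpl21 shared its peak with Ighmbp2, a helicase gene on the other strand whose start lies 32 bp from that of Mrpl21. The SETα IDR summit was 37 bp from the start of Ighmbp2 and 69 bp from that of Mrpl21, so the peak cannot be given to either gene. At Mrpl30 the summit was 7 bp from the gene's start and 73 bp from that of Mitd1 in the SETα list, and 2 bp and 68 bp away in the SETβ list. At Mrps27 it was closer to Ptcd2 (22 bp with SETα) than to the listed start of Mrps27 (86 bp).

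Shared peaks were also found at Mrpl44 with Wdfy1, at Mrpl13 with Mtbp, at Mrpl53 with Ccdc142, at Mrps18c with Helq, a DNA helicase gene, and at Mrps34 with Eme2. The SETα peak at Mrps34 reached the 1 kb around Nme3 as well. Mrpl1, Mrpl3, Mrpl16, Mrpl20 and Mrpl39 had their IDR peak without a second protein-coding gene end.

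Close neighbours were common in the family at large. An end of another protein-coding gene lay within 1 kb of an end of 37 of the 65 genes (56.9%), beside 23.7% of all protein-coding genes. Of these 37, 12 (32.4%) had a peak in all 4 addback libraries, beside 10.5% of all protein-coding genes with such a neighbour. Of the 28 without a neighbour, 5 did (17.9%), beside 3.48%. The shares of the family thus lay above the matching background in both classes, and the part that close neighbours play in the peaks was not tested. Of the 57 genes with a listed start, 23 (40.4%) had the start of a gene on the other strand within 1 kb, beside 9.27% of 15495 protein-coding genes, among them the pair Mrpl46 and Mrps11, whose starts are 42 bp apart. Both SETα addback replicates had a peak at 56.5% of the 23, beside 45.7% of all protein-coding genes of that kind, both SETβ replicates at 30.4% beside 16.0%, and all 4 libraries at 30.4% beside 14.3%.

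Base composition of the promoters also differed between these genes and the background. A GC content of at least 50% and a CpG ratio (observed over expected) of at least 0.6 were found in the windows of 41 of the 57 genes (71.9%), beside 46.1% of 15495 protein-coding genes with a window. By number of libraries, these were 73.3% of the windows of genes with a peak in all 4 addback libraries, 79.3% with a peak in 1 to 3 and 53.8% without one. Of these 41 genes, 11 (26.8%) had a peak in all 4 addback libraries, beside 9.16% of the CpG-rich protein-coding genes. The addback IDR lists held 7 (17.1%) and 8 (19.5%) of the 41, beside 4.78% and 4.64%. In single libraries with SETα the shares were 73.2% beside 55.7% in replicate 1 and 58.5% beside 53.2% in replicate 2. Both SETα replicates had a peak at 53.7% beside 38.2%. With SETβ the shares were 31.7% beside 14.8% and 51.2% beside 31.0%. The background genes were not matched for expression, and its part in the result was not tested.

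The ETS letters CCGGAAG were in the windows of 7 of 15 genes with a peak in all 4 addback libraries (46.7%), of 9 of 29 with a peak in 1 to 3 (31.0%) and of 3 of 13 without one (23.1%), beside 12.2% of all windows. The SP/KLF letters ran the other way, in 33.3%, 55.2% and 76.9% of these classes, beside 47.4% of all windows. The NFY letters did likewise, in 20.0%, 48.3% and 53.8%, beside 41.2%. The NRF1 letters were in 5 of 57 windows of the family (8.77%), beside 2.43% of all, and the YY1 letters in 7 (12.3%), beside 2.72%. The TATA letters were in 4 (7.02%), beside 14.4%, the CREB/ATF letters in 2 (3.51%), beside 2.39%, and the BANP or ZBTB33 letters in 1 (1.75%), beside 1.52%. A match is a description of exact letters in a window, variants of the letters were not searched, and the classes are small.

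Mrpl28, Mrpl41, Mrpl52, Mrps15, Mrps30 and Mrps6 had a peak in both SETα addback replicates and in neither SETβ replicate, 6 of 65 genes (9.23%), a share near the 10.1% of all protein-coding genes. The reverse held for 0 of the 65, beside 0.187%. All 6 had weak peaks: the −log10 p was 4.77 and 4.93 at Mrpl28, and 3.51 and 8.2 at Mrps15, the highest of the 12 values. Mrpl28 encodes a large-subunit protein, and Mrps15 the counterpart of bacterial S15. Mrpl28 shared its peaks with Pgap6, Mrpl41 with Pnpla7 and Mrps6 with Slc5a3. At Mrpl52 the replicates did not list the same peak: that of replicate 1 lay at the far end of the gene and was shared with Mmp14, and that of replicate 2 lay at its start. The SETβ lists were shorter. With the 1343 strongest peaks of each library, 15 genes of the family had a peak in both SETα addback replicates. In both SETβ addback replicates 15 had one, and the shares of all protein-coding genes were 3.22% and 3.34%. In SETα addback replicate 1 the peaks of the 6 genes ranked from 8117 to 19804, outside the 1343 strongest. The part of list length in the 10.1% of all protein-coding genes was not tested.

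The few peaks in SET wild-type cells were weak or lay in an unusual stretch. Mrpl51, a large-subunit gene specific to mitochondria, had a peak with SETα in both overexpression replicates, with a −log10 p of 7.74 and 7.71, each shared with Ncapd2. It lies in a stretch of chromosome 6 from 118 to 136 Mb where 66.1% and 79.8% of 257 protein-coding genes had a peak in those libraries. The 2 summits were 215 bp inside and 215 bp ahead of its start, so they were not the same peak. With SETβ overexpression replicate 2, Mrps18b, Mrps21 and Mrpl39 had peaks with a −log10 p of 5.4, 4.14 and 3.41, of which none reached a −log10 q above 0.94. The peak at Mrps18b, with its summit 725 bp ahead of the start, was shared with Ppp1r10 and the noncoding gene Mir1894. That at Mrps21 had its summit past the far end of the gene, 9690 bp from the start, whereas the addback summits there lay within 159 bp of it.

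No peak was found in any library at 16 genes (24.6%, beside 51.7% of all protein-coding genes). The first 10 in alphabetical order were Mrpl15, Mrpl17, Mrpl18, Mrpl19, Mrpl24, Mrpl35, Mrpl37, Mrpl4, Mrpl42 and Mrpl46. Proteins of the same particle were therefore encoded by genes at the top of the lists and by genes outside them. For instance Mrpl1 and Mrpl3 were in both addback IDR lists and Mrpl4 in none of the 8 libraries.

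Other genes of mitochondrial gene expression, a list of 44 grouped by role of which 38 could be measured, were read in the same way. A peak in all 4 addback libraries was found at 8 of them (21.1%, beside 5.14% of all protein-coding genes). The addback IDR lists held 6 with SETα (15.8%, beside 2.77%) and 7 with SETβ (18.4%, beside 2.62%). Among 15 assembly factors of the mitochondrial ribosome these were the GTPase gene Mtg1, at −log10 p of 55.7, 60.8, 70.7 and 56.6 in the 4 libraries, and Mterf4 and Nsun4, whose products act together on ribosomal RNA. Mterf4 had values of 32.3, 27.3, 43.5 and 26.7, and Nsun4 had 6.4, 7.72, 12.4 and 8.09 and was in the SETβ IDR list only.

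Of 7 translation factors, Tufm, the mitochondrial elongation factor Tu, had values of 15.8, 28.8, 24.8 and 33.8, and Gfm2, which takes part in ribosome recycling, had 28.5, 31.7, 68.2 and 27.5. Aurkaip1, a small-subunit protein without an Mrps symbol, had 41.3, 37.2, 42.9 and 20.5. Trmt10c, a subunit of mitochondrial RNase P, had 17.3, 20.3, 23.6 and 14.8. Tfam, the packaging and transcription factor of mitochondrial DNA, had a peak in all 4 libraries at low strength, with 4.77, 4.26, 3.76 and 5.07, and was in no IDR list.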

How the data were processed

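Chromatin immunoprecipitation with an HA antibody was analysed from peak lists of 8 libraries and 4 IDR lists. Bowtie2, MACS2, deepTools and the builds GRCm38 and mm10 are named in the submitters' processing notes, with no role or version. The authors called peaks per library. Fold enrichment, as deposited, is a linear ratio, and −log10 p and −log10 q are the authors' peak caller's. The deposited score is a scaled −log10 p (in the IDR lists, of the IDR). These are the authors' values and were used only within their own list. IDR lists combine both replicates and carry no replicate error. Read totals were not used here, and list length is not a measure of depth.

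Peaks were set against a RefSeq gene table (GRCm38.p6), positions counted from 1, and promoter windows came from RefSeq for 57 of the 65 genes. The strongest peak stands for a gene. Named were all genes in an IDR list, in an overexpression library, or in both replicates of 1 addback isoform and neither of the other, and the first 10 without a peak. Mrpl14, Mrpl57, Mrps11 and Tfam, outside this rule, were named after their values were seen. The genes, lists and motifs were chosen with earlier results of these data known. Shares of all protein-coding genes were compared by exact permutation of labels. Scripts (Python 3.11.15, pandas 2.3.3, numpy 2.4.6) were tested on simulated lists. Alternatives were the window, summits, starts only, stricter peaks, equal numbers of peaks and each replicate left out.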

Additional observations from a re-analysis of the deposited data

How the results depend on the processing

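The difference between SET KO and wild-type cells, and that between isoforms, in the share of protein-coding genes with a peak kept their direction under all alternatives run (32 over both differences). The first lay between 3.41 points (−log10 q of 5 or more) and 25.7 points (window of 2.5 kb). The second lay between 0.0572 points (the 1343 strongest peaks of each library, exact permutation p = 0.889) and 12.5 points. Without chromosome 6 it was 9.47 points (exact permutation p = 0.278), and in wild-type cells alone SETα was then not above SETβ. Leaving out each library gave 19.5 to 24.4 points and 7.51 to 12.5 points. With the replicate number as a block the differences of 22.0 and 10.0 points each had an exact permutation p of 0.125, the smallest of 16 arrangements. The replicate differences of the groups had correlations of −0.00179 to 0.0281 with each other. The labels do not say whether same-numbered libraries were handled together, and correlations over lists of unlike length cannot settle it.

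Counts of members moved by over 1.5 times mainly with the strength asked of a peak. With a −log10 q of 5 or more asked for, the SETα addback replicates held 15 and 16 members (beside 3.88% and 4.52% of all protein-coding genes), SETβ addback replicate 2 held 14 (2.62%), and the SETα overexpression replicates and SETβ overexpression replicate 2 held 0 (0.0052%, 0.0624% and 0.0052%). With the 1343 strongest peaks the SETα addback replicates held 16 and 18 (4.65% and 5.76%) and SETβ addback replicate 2 held 16 (4.96%). Both SETα addback replicates shared 14 members at the q limit (2.88%) and 15 among the strongest peaks (3.22%), and both SETα overexpression replicates shared 0 at the q limit. With a window of 250 bp, SETβ overexpression replicate 2 held 1 member (1.54%, beside 0.733%). Of the 28 members without neighbours within 1 kb, 8 (28.6%, beside 16.9% of such protein-coding genes) were counted for both SETα addback replicates, 5 (17.9%, beside 4.05%) for SETβ addback and 0 for SETα overexpression. Without chromosome 6, chosen after seeing the data, both SETα overexpression replicates held 0 members (beside 0.105% and 0.867%) and shared 0 (0.0718%). With 1 replicate left out, the count in both becomes that of the other library alone. It was then 36 or 40 members for SETα addback, beside 31.8% and 34.3% of all protein-coding genes. For SETβ addback it was 19 or 29 (8.4% and 18.4%), and for SETβ overexpression 0 or 3 (0.338% and 1.85%). The IDR counts stayed within 1.5 times in all 20 pairs of a list and an alternative. Peaks with a −log10 q of 5 or more numbered 27 to 98 in the overexpression libraries and 498 to 1064 in the addback libraries.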

Other observations

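Genes for cytoplasmic ribosomal proteins were read from the same lists. Of 67 such genes, 54 (80.6%) and 55 (82.1%) had a peak in the SETα addback replicates. The mitochondrial genes stood at 61.5% and 55.4% there, and all protein-coding genes at 34.3% and 31.8%. In the SETβ addback replicates 19 (28.4%) and 32 (47.8%) of the cytoplasmic genes had one. There the mitochondrial genes stood at 29.2% and 44.6%, and all protein-coding genes at 8.4% and 18.4%. A peak in all 4 addback libraries was found at 13 of the cytoplasmic genes (19.4%), beside 26.2% of the mitochondrial ones and 5.14% of all protein-coding genes. Only 1 of the 67 (1.49%) had no peak in any library. None was found at 16 of the 65 mitochondrial ribosomal protein genes (24.6%) and at 51.7% of all protein-coding genes. The addback IDR lists held 5 (7.46%) and 6 (8.96%) of the cytoplasmic genes, beside 13 (20.0%) and 14 (21.5%) of the mitochondrial ones. Of all protein-coding genes they held 2.77% and 2.62%. Both SETα replicates and neither SETβ replicate had a peak at 20 of the cytoplasmic genes (29.9%) and at 6 of the mitochondrial ones (9.23%). The mitochondrial share was near the 10.1% of all protein-coding genes. The difference between the gene families was not tested.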
